A study of Equus caballus with 34 samples.

Results

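The genes examined here are 7 components of Hedgehog signalling in the wall of the dominant follicle of the mare: IHH, GLI1, GLI2, GLI3, PTCH1, HHIP and SMO. Every probe outside the array's controls that carried one of these genes in its gene name or description was taken, which gave 19 probes of 43603, and 7 genes of 33714 features once probes of a gene were joined. The horse (Equus caballus) follicles were taken as early dominant (ED), as late dominant (LD) or, near ovulation, as preovulatory (PO) follicles. Granulosa cells (GC), the epithelial layer that lines the follicle, and theca wall (TW), the vascular and stromal layer around it, were profiled separately, with total RNA labelled with Cy3 and 1 single-colour Agilent array per sample. There were 5 arrays in each of the GC ED, GC LD, GC PO, TW ED and TW PO groups and 9 in TW LD, 34 in all, and the series' design text calls them biological replicates. That text gives n = 5 per group compared without saying which of the 9 TW LD arrays were used, and all 9 are used here. No treatment, genotype, breed or age is given in the labels, nor whether a GC and a TW sample came from the same follicle. The theca wall is a mixture of steroidogenic, stromal, vascular and immune cells, so that in these bulk samples fewer cells of a type and less RNA per cell cannot be told apart.

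In Hedgehog signalling a secreted ligand binds the receptor PTCH1 on a neighbouring cell, which releases the membrane protein SMO from inhibition and lets the GLI transcription factors switch on target genes. GLI1, PTCH1 and HHIP are themselves targets in many tissues, so their transcripts are commonly read as signs of pathway activity. GLI2 mainly acts as the activator and GLI3 mainly as a repressor, while PTCH1 and HHIP restrain the pathway by binding ligand. In the ovaries of mammals such as the mouse, granulosa cells make the ligands and the theca responds to them.

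The values below are log2 signals minus the 75th percentile of the same array, so that 0 marks the 75th percentile of an array and each step of 1 is a doubling. Levels of different probes are not compared with each other. A probe was read as measured on an array only where the scanner software flagged it as well above background. A difference passed the test where limma's moderated test, adjusted by Benjamini-Hochberg over every feature tested, gave p under 0.05, and a gene was tested only if at least 5 arrays in the fit were well above background.

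The probes are 60-base oligonucleotides, and 6 of them are shown. They are the only probes of IHH, SMO and GLI3, and further probes of GLI1 and PTCH1 used where probes of a gene are compared. The probes that stand for GLI1 and PTCH1, and the HHIP probe, which give the main values of these genes, are not shown. Each is written as the design gives it, and capitals mark a stop codon at the end of a reading frame that is open up to it. Coordinates are those of the array design, whose genome build is not named in the sources used here, and exon annotation of that build was not used here.
IHH, chr6:8623620-8623679, minus strand: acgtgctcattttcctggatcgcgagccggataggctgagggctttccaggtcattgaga
GLI1, probe at the end of the coding sequence, chr6:72032726-72032785, plus strand: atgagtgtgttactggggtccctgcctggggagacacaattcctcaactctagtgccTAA
SMO, chr4:83362195-83362254, plus strand: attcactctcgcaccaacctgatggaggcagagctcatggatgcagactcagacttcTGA
GLI3, chr4:13133577-13133636, minus strand: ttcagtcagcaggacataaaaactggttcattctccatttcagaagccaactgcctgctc
PTCH1, junction probe, chrUn:118469074-118469806, plus strand: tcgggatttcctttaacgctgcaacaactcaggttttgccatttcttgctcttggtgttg
PTCH1, probe that did not pass with the others, chrUn:118491950-118495348, plus strand: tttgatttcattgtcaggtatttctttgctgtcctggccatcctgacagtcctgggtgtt
The GLI1 and SMO probes shown read in 1 open frame down to the stop codon. The 60 bases of the PTCH1 junction probe were assigned a span of 733 bases in the design coordinates, and those of the other PTCH1 probe a span of 3399 bases, so that both cross at least 1 gap in the genomic sequence. The longest run that probes of different members share is 8 bases. IHH, GLI2, GLI3, HHIP and SMO had 1 probe each. GLI1 and PTCH1 had 7 each, of which 5 in either gene are copies shifted along the transcript by 1 base, and the probe with the highest mean over the 34 arrays stands for the gene.

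The labelled layers carried their own markers. All 9 granulosa markers measured (such as CYP19A1 and FSHR) were higher in GC over the mean of the stages, and all 10 theca and stroma markers, 8 endothelial markers and 8 smooth muscle and pericyte markers were higher in TW. Of 8 leukocyte markers 7 were higher in TW and 1, PTPRC, was higher in GC. The summed signal of the granulosa markers, in multiples of the 75th percentile, ran from 105 to 329 in the GC groups and from 13.7 to 83.7 in the TW groups. For the theca and stroma markers it ran from 146 to 276 in TW and from 9.83 to 74.0 in GC. The highest granulosa sum in TW was on TW ED array 5, and the highest theca sum in GC was on GC LD array 1. Between 64.3% and 82.5% of spots per array were well above background. The 4 arrays of slide 7 (TW ED 4, TW LD 6, TW LD 7 and TW PO 4) stood apart, with a median coefficient of variation of repeated probes of 15.4% to 24.5% against 3.70% to 6.26% on the other arrays. GC and TW arrays lay on different slides except for slides 2 and 8, which each held 1 TW LD array beside the 3 GC stages, so slide and layer are largely confounded. Other scalings left the stage comparisons within 0.23 of the main median log2 difference over all features, but raised the GC minus TW median by up to 0.78 (median centring at PO). With median centring 75.7% of the features that differed between layers were higher in GC, against 42.8% in the main scaling. Of the features that differed in TW between PO and LD 26.5% were then higher at PO, against 55.9%, and between PO and ED 30.4%, against 52.7%. Small layer differences therefore depend on the scaling, and are marked below.

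**Figure D1:**
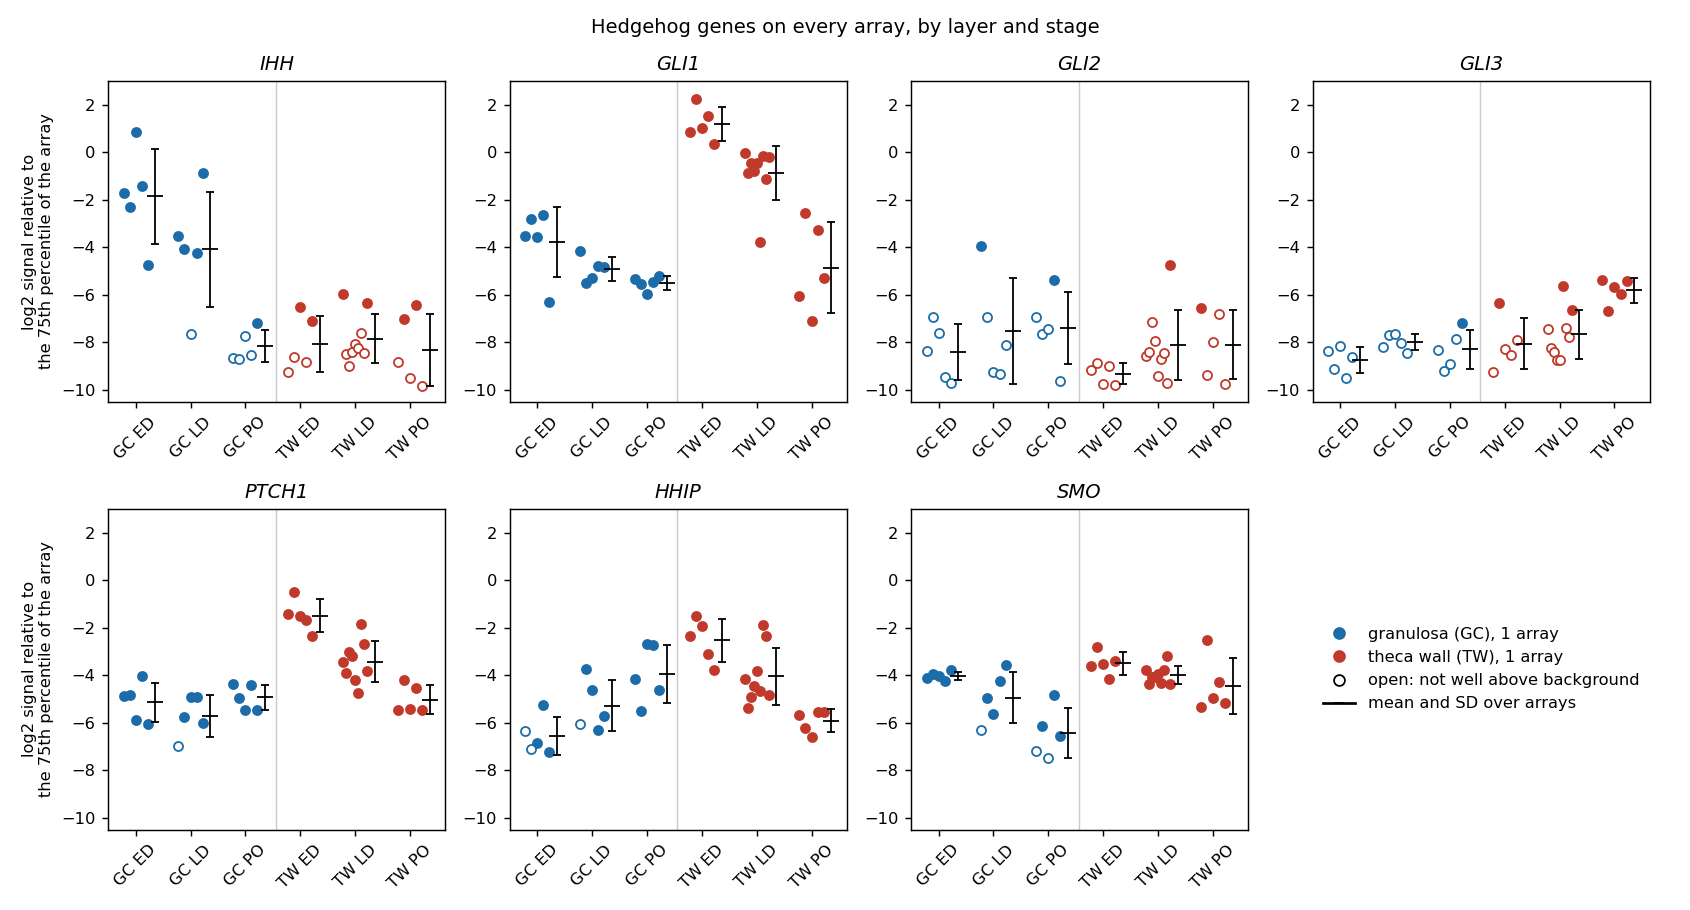
Each point is 1 array, by layer and stage, with log2 signal relative to the 75th percentile of the array on the vertical axis, filled where the probe was well above background and open where it was not. Black bars give the mean and SD over the 5 arrays of a group (9 in TW LD). IHH is high in GC ED and GC LD, and GLI1, PTCH1 and HHIP are highest in TW ED and lower in TW LD and TW PO, whereas HHIP goes up with stage in GC.

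The ligand IHH was a granulosa transcript of early and late dominance that had dropped to the background by the preovulatory stage. In GC ED its log2 values were 0.85, −1.41, −1.69, −2.31 and −4.73, all well above background. In GC LD they were −0.88, −3.53, −4.07, −4.23 and −7.66, of which the lowest was not well above background. In GC PO they were −7.19, −7.74, −8.53, −8.67 and −8.70, and only the highest was well above background. No GC PO array reached the lowest GC ED array, and GC PO overlapped GC LD only through the GC LD array at −7.66. IHH fell from ED to PO in GC, with a fitted difference of −6.31 ± 1.06 SE (adjusted p = 0.000463, limma). Since 4 of 5 GC PO arrays were not well above background, the size follows the background handling, and it was −3.59 in the deposited value table and −2.59 after normexp, both past the threshold (adjusted p = 0.0017 and 0.005). Of the 5 tested members 3 fell over that interval, against 22.4% of all features tested. Granulosa markers moved with it, 6 of 9 having fallen from ED to PO, and their summed signal ran from 197 to 329 in GC ED and from 105 to 147 in GC PO. Their part in the IHH result was not tested.

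From LD to PO, IHH was the only member of the 5 tested that passed the test in GC (−4.09 ± 1.06 SE, adjusted p = 0.0193, limma), where 17.5% of all features did (6.78% higher and 10.7% lower). It was lower within each of the 5 slides, with differences from −6.31 to −0.07. The call was lost after normexp background correction with quantile normalization (−1.33, adjusted p = 0.168) and in the deposited value table (−1.98, adjusted p = 0.0851). From ED to LD the difference was −2.22 ± 1.06 SE (adjusted p = 0.341, limma), and no member passed in that step in GC, where 0.00399% of all features did (1 feature). By limma at an unadjusted p under 0.05 none of the 5 passed either, and the lowest unadjusted p was 0.0535, for GLI1. The share of all features below that unadjusted threshold is not given here.

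In the theca wall IHH was at or near background at every stage. Its lowest, median and highest log2 values were −8.98, −8.25 and −5.97 in TW LD, where 2 of 9 arrays were well above background. The 5 TW ED values were −6.50, −7.11, −8.63, −8.82 and −9.25 and the 5 TW PO values −6.40, −7.01, −8.83, −9.48 and −9.84, with 2 arrays well above background in either group. In TW ED those were arrays 3 and 5, which had the highest granulosa marker sums of the TW groups (47.8 and 83.7). In TW PO they were arrays 2 and 4, with the highest and the lowest sum of that group (30.3 and 13.7). In TW LD they were arrays 1 and 9, with sums of 21.8 and, the lowest of that group, 14.3. The part of granulosa RNA in these values was not tested. IHH was higher in GC than in TW at ED by 6.20 ± 0.92 SE and at LD by 3.77 ± 0.81 SE (adjusted p = 2.98e-06 and 0.000499, limma). These sizes are set against TW arrays mostly at background, and after normexp they were 2.59 and 1.40, still past the threshold (adjusted p = 2.82e-05 and 0.00587). At PO the difference was 0.15, with a 95% interval from −1.73 to 2.02 (adjusted p = 0.905), on arrays that were mostly at background. The change from ED to PO in GC minus that in TW was −6.05 (adjusted p = 0.00104, limma interaction).

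The transcription factor GLI1 was the theca wall gene with the widest range among the members. In TW ED the 5 log2 values were 2.23, 1.51, 1.02, 0.84 and 0.34. In TW LD they ran from −3.76 through a median of −0.45 to −0.02, and in TW PO they were −2.53, −3.26, −5.29, −6.06 and −7.11. No array of TW LD reached the lowest TW ED array, and TW LD and TW PO overlapped only through TW LD array 6, at −3.76. GLI1 fell by 3.99 ± 0.68 SE from LD to PO (15.8-fold, adjusted p = 0.00468) and from ED to PO it changed by −6.04 ± 0.77 SE (65.8-fold, adjusted p = 0.000341, limma). After normexp the ED to PO difference was −4.54 (adjusted p = 0.000252). Within each of the 5 slides it lay below 0, between −8.12 and −4.76.

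In GC the same probe was well above background on every array but much lower than in TW at ED and LD. Its GC ED values were −2.64, −2.82, −3.51, −3.57 and −6.32, its GC LD values −4.17, −4.79, −4.83, −5.27 and −5.50, and its GC PO values −5.20, −5.33, −5.48, −5.54 and −5.97. GLI1 fell by 1.73 ± 0.54 SE in GC from ED to PO (adjusted p = 0.0184, limma), a call that was lost without GC ED array 4 (−1.45, adjusted p = 0.0524). The GC LD array with the highest theca marker sum (74.0, array 1) had the highest GLI1 value of its group, at −4.17. On that array PTCH1 was the lowest of its group, at −7.00, and HHIP was −6.05, neither of them well above background. GC ED array 4 had the highest theca marker sum of GC ED (41.7). Its GLI1, PTCH1 and HHIP values were the highest of that group (−2.64, −4.05 and −5.25). GC PO array 3 had the highest theca marker sum of GC PO (27.8). There GLI1 and PTCH1 were the lowest of the group (−5.97 and −5.47) and HHIP the highest (−2.68). The part of theca RNA in the GC values was not tested. GC was below TW, with a difference of −4.96 ± 0.70 SE at ED and −4.05 ± 0.62 SE at LD (adjusted p = 1.41e-06 and 5.13e-06, limma). At PO the layers overlapped, with a difference of −0.65 and a 95% interval from −2.08 to 0.78 (adjusted p = 0.457), whose sign turned with quantile normalization (0.26) and median centring (0.13).

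PTCH1, the receptor and a target, followed GLI1 in the theca wall. Its log2 values in TW ED were −0.49, −1.42, −1.51, −1.70 and −2.38. They ran from −4.73 through a median of −3.47 to −1.85 in TW LD, and were −4.22, −4.53, −5.44, −5.48 and −5.48 in TW PO. TW ED and TW PO did not overlap, and 8 of the 9 TW LD arrays lay below every TW ED array. PTCH1 fell by 3.53 ± 0.46 SE from ED to PO (11.6-fold, adjusted p = 0.000355) and changed by −1.59 ± 0.40 SE from LD to PO (adjusted p = 0.0158, limma). The ED to PO difference was −2.08 after normexp and −2.43 with the mean of all PTCH1 probes (adjusted p = 0.000321 and 0.000759). The fall from LD to PO was no longer called with that mean (−0.82, adjusted p = 0.109), with normexp and quantile normalization (−0.73, adjusted p = 0.0577) or without TW PO array 5 (−1.48, adjusted p = 0.0565).

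In GC the PTCH1 values changed little with stage. They were −4.05, −4.84, −4.89, −5.88 and −6.04 in GC ED, −4.92, −4.93, −5.75, −6.00 and −7.00 in GC LD, and −4.35, −4.43, −4.98, −5.45 and −5.47 in GC PO. The GC LD value of −7.00 was not well above background. The difference between PO and ED was 0.20, with a 95% interval from −0.76 to 1.17 (adjusted p = 0.741, limma). GC lay below TW, with a difference of −3.64 ± 0.47 SE at ED and −2.28 ± 0.41 SE at LD (adjusted p = 2.72e-07 and 5.59e-05, limma). At PO the difference was 0.09, with a 95% interval from −0.86 to 1.04.

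HHIP, which sequesters Hedgehog ligands at the cell surface, moved in opposite directions in the 2 layers. In TW ED its values were −1.50, −1.95, −2.34, −3.12 and −3.80. In TW LD they ran from −5.39 through a median of −4.45 to −1.91, and in TW PO they were −5.54, −5.54, −5.67, −6.24 and −6.60. Every TW PO array lay below every TW LD and TW ED array. HHIP fell in TW, with a difference of −1.86 ± 0.52 SE from LD to PO (adjusted p = 0.024) and of −3.37 ± 0.59 SE from ED to PO (10.4-fold, adjusted p = 0.00115, limma). The latter was −2.34 in the deposited value table and −1.44 after normexp (adjusted p = 0.00206 and 0.00523). The fall from LD to PO was lost with slide as a block (−1.75, adjusted p = 0.0613), with normexp and quantile normalization (−0.65, adjusted p = 0.14) and in the deposited value table (−1.18, adjusted p = 0.0585), and also without TW PO array 3 (adjusted p = 0.0639) or array 5 (adjusted p = 0.0543).

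In GC the HHIP values were −5.25, −6.35, −6.86, −7.10 and −7.24 at ED, −3.74, −4.61, −5.71, −6.05 and −6.31 at LD, and −2.68, −2.73, −4.16, −4.64 and −5.49 at PO. The ED values −6.35 and −7.10 and the LD value −6.05 were not well above background. Sizes set against GC ED therefore start partly from background. Of the 5 PO arrays 4 lay above every ED array, and the lowest, at −5.49, lay below the highest ED array. HHIP rose by 2.62 ± 0.62 SE from ED to PO (adjusted p = 0.00353, limma), where 21.6% of all features rose, and was the only one of the 5 tested members to do so in GC. It was higher at PO within each of the 5 slides, by 1.60 to 4.17, and the difference was 1.48 in the deposited value table and 0.87 after normexp (adjusted p = 0.00844 and 0.0146). The layer difference for HHIP was −4.01 ± 0.62 SE (GC minus TW) at ED and 1.97 ± 0.62 SE at PO (adjusted p = 5.39e-06 and 0.00899, limma), and the stage change differed between the layers by 5.99 ± 0.87 SE (adjusted p = 3.71e-05, limma interaction), or by 2.31 after normexp (adjusted p = 0.000384).

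GLI3, the member best known as a repressor, was near background in most groups and measurable in preovulatory theca wall. Its TW PO values were −5.35, −5.41, −5.66, −5.97 and −6.66, all well above background. Only the TW ED array at −6.33 and, in TW LD, 2 of 9 arrays (−5.61 and −6.62) were well above background at the earlier stages. The other 4 TW ED values were −7.88, −8.29, −8.54 and −9.23, and TW LD had a median of −7.75. The fitted differences in TW were 1.85 ± 0.50 SE from LD to PO (adjusted p = 0.0211) and 2.24 ± 0.56 SE from ED to PO (adjusted p = 0.00809, limma). GLI3 met the minimum of 5 arrays only through TW PO, the group where it is high, and the other groups were mostly at background, so neither the sizes nor the calls of GLI3 are read as support for a rise.

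Both GLI3 calls were also lost with other background handling. With normexp and quantile normalization the differences were 0.15 and 0.14 (adjusted p = 0.105 and 0.122), and in the deposited values 0.33 and 0.39 (adjusted p = 0.0885 and 0.0534). The call against LD was also lost with slide as a block (1.71, adjusted p = 0.0809) and without TW PO array 1 (adjusted p = 0.0571) or array 5 (adjusted p = 0.0668). In GC the probe was well above background on 1 of 15 arrays (GC PO, −7.17) and was not tested between stages. At PO it was lower in GC than in TW (−2.48 ± 0.50 SE, adjusted p = 0.00016, limma), and the groups did not overlap. That difference was −0.31 in the deposited value table, where it did not pass (adjusted p = 0.0556), and −0.17 after normexp (adjusted p = 0.0253), and it too rests on the TW PO arrays for the filter.

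GLI2 was well above background on only 4 of 34 arrays, which were 1 each in GC LD (−3.95), GC PO (−5.39), TW LD (−4.73) and TW PO (−6.55). It was tested in no comparison, and no level can be given for it beyond this.

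SMO, the membrane transducer, fell in granulosa. Its GC ED values were −3.79, −3.95, −4.03, −4.11 and −4.23, its GC LD values −3.57, −4.23, −4.98, −5.65 and −6.30, and its GC PO values −4.82, −6.15, −6.56, −7.18 and −7.47. All GC PO arrays were below all GC ED arrays, and 2 of the GC PO arrays were not well above background, nor was the GC LD array at −6.30. The difference from ED to PO was −2.42 ± 0.52 SE (5.33-fold, adjusted p = 0.00201), or −1.30 in the deposited value table and −0.77 after normexp (adjusted p = 0.00335 and 0.00273), and the difference from LD to PO was −1.49 ± 0.52 SE (adjusted p = 0.0595, limma). That difference passed the test with slide as a block (adjusted p = 0.0388) and with all 34 arrays in the fit (adjusted p = 0.0179), and without GC LD array 1, GC LD array 3 or GC PO array 4 (adjusted p = 0.0326, 0.035 and 0.0223).

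In TW the SMO values were −2.81, −3.41, −3.52, −3.63 and −4.17 at ED, from −4.37 through −4.07 to −3.22 at LD, and −2.51, −4.29, −4.97, −5.16 and −5.35 at PO. The difference from ED to PO was −0.95 ± 0.41 SE (adjusted p = 0.092, limma), and TW PO array 2, at −2.51, lay above all other TW arrays. Without that array the difference was −1.44 (adjusted p = 0.00163), and it also passed with median centring (adjusted p = 0.03) and quantile normalization (adjusted p = 0.0343). At PO SMO was lower in GC than in TW (−1.98 ± 0.47 SE, adjusted p = 0.000965), a call lost with quantile normalization (−1.03, adjusted p = 0.0871), with normexp and in the deposited value table.

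**Figure D2:**
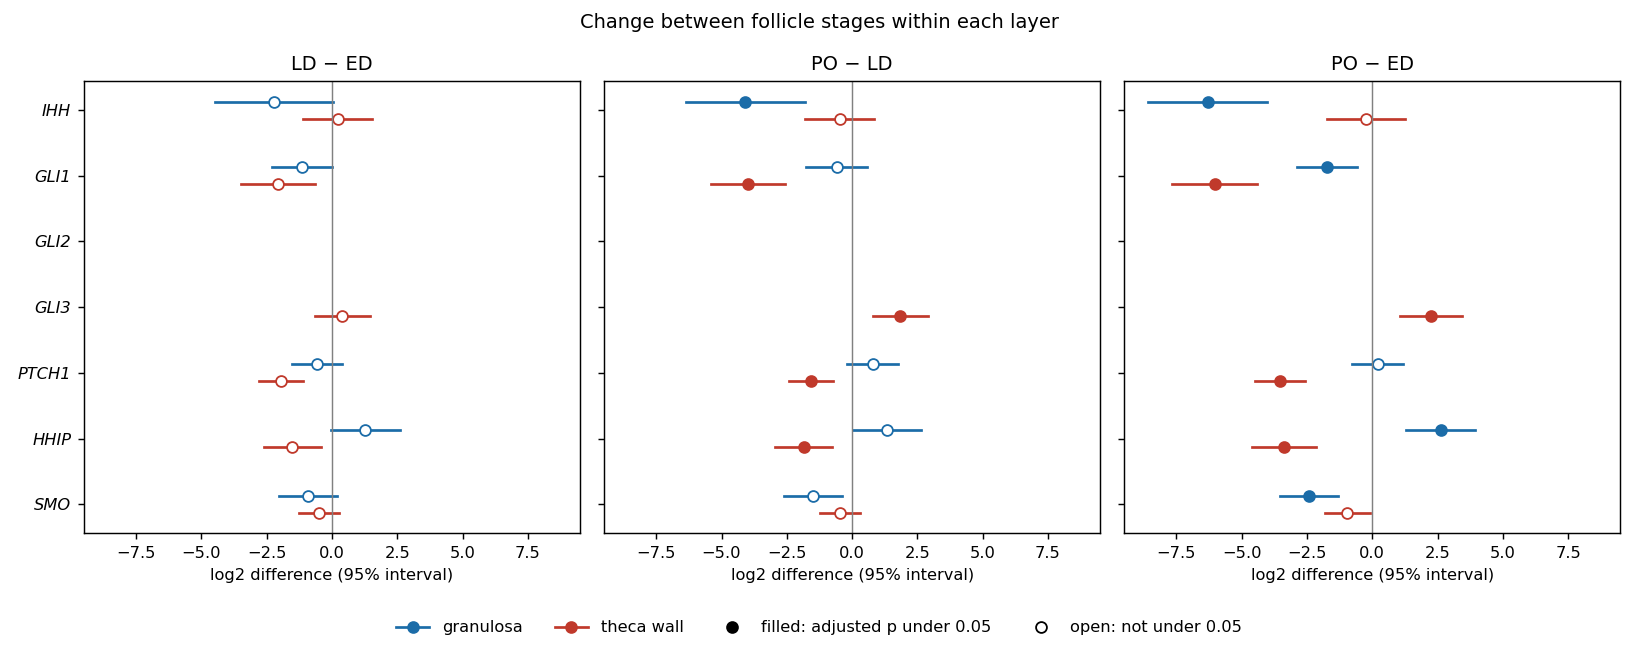
Log2 differences between stages with 95% intervals for each member, granulosa in blue and theca wall in red, filled where adjusted p was under 0.05. In TW the intervals of GLI1, PTCH1 and HHIP lie below 0 in all 3 steps, and from ED to PO HHIP is on opposite sides of 0 in the layers (2.62 in GC and −3.37 in TW).

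Counted over the members, TW showed no call from ED to LD among 6 tested (background 0.0367%, 10 of 27282 features, with 0.0147% higher and 0.022% lower). The differences there were −2.06 ± 0.68 SE for GLI1 (adjusted p = 0.188), −1.94 ± 0.40 SE for PTCH1 (adjusted p = 0.0716) and −1.52 ± 0.52 SE for HHIP (adjusted p = 0.201, limma). These 3 of the 6 were below an unadjusted p of 0.05 by limma. The share of all features below that unadjusted threshold is not given here, so this count is not read as a result. PTCH1 passed with median centring, with normexp and quantile normalization, in the deposited value table and without TW LD array 7 (adjusted p = 0.0497, 0.0321, 0.0338 and 0.0335). From LD to PO 3 members fell and GLI3, which passed the filter through TW PO alone, was called higher, where 6.83% of all features fell and 8.65% rose. From ED to PO the same 3 fell and GLI3 was again called higher, against 12.4% and 13.8% of all features, 26.2% together. These 2 comparisons share the PO arrays. The LD to PO count was 1 without TW PO array 5, 1 with normexp and quantile normalization, and 2 in the deposited value table or with slide as a block.

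The layers differed at ED in 4 of 6 tested members, with IHH higher in GC and GLI1, PTCH1 and HHIP lower (34.8% of all features differed, 14.3% higher and 20.5% lower). At LD 3 of 6 differed, with IHH higher and GLI1 and PTCH1 lower (31.4% of all features, 12.1% and 19.4%). At PO 3 of 6 differed, with HHIP higher and GLI3 and SMO lower in GC (48.8% of all features, 20% and 28.8%). GLI3 entered the layer comparisons only through TW PO, the group where it is high, so its calls are not read as support. In the deposited value table that PO count was 1. Over the mean of the stages IHH was higher and the other 5 tested members lower in GC (52.5% of all features differed, 22.5% higher and 30.1% lower). The mean difference was 3.37 for IHH, −3.22 for GLI1 and −1.94 for PTCH1. For GLI3 (−1.16), HHIP (−1.09) and SMO (−1.15) the call was lost with quantile normalization, with median centring and in the deposited value table, so that 3 members differed there. The HHIP and SMO calls were lost after normexp as well (−0.19 and −0.13, adjusted p = 0.349 and 0.298).

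**Figure D3:**
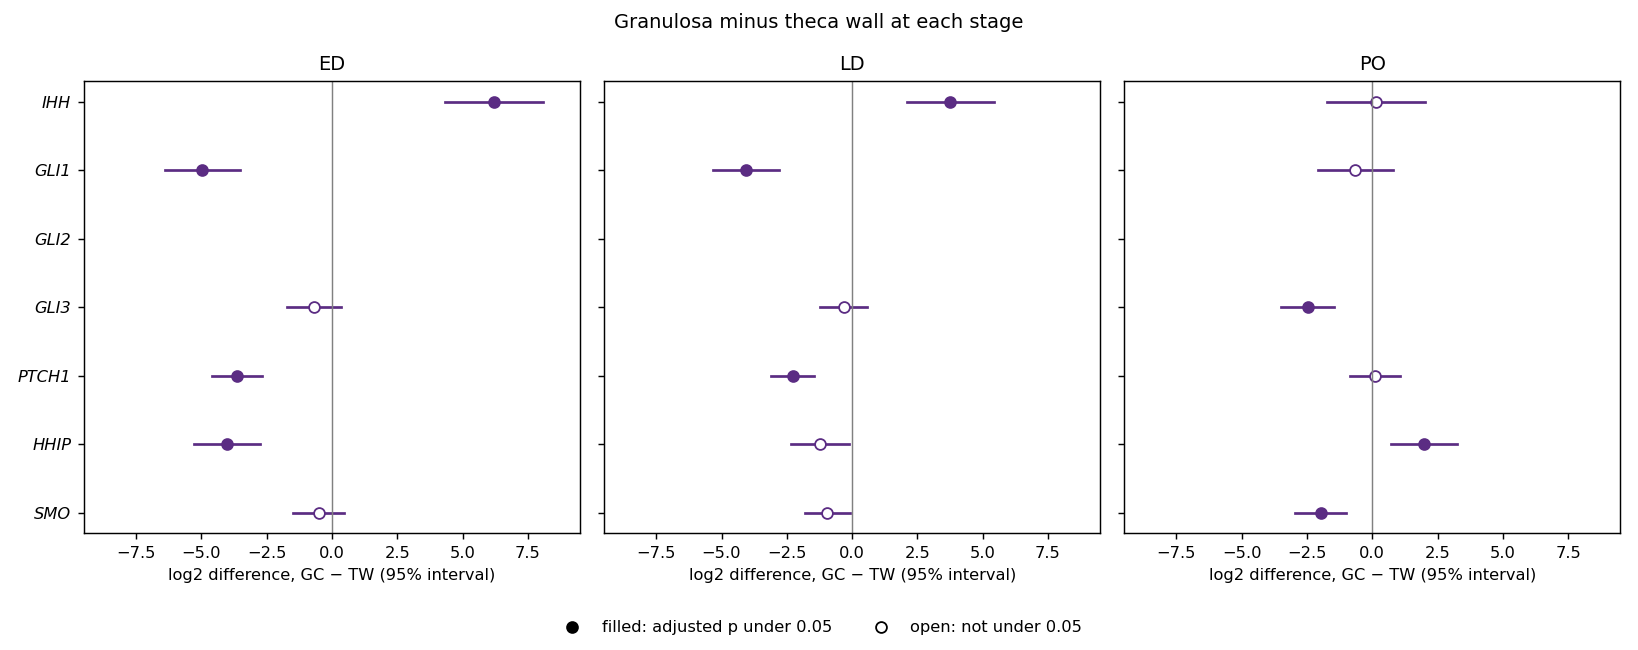
Log2 difference of granulosa minus theca wall with its 95% interval, at each stage, filled where adjusted p was under 0.05. IHH is above 0 and GLI1 and PTCH1 below 0 at ED and LD, and at PO the intervals of all 3 include 0 while HHIP is above it at 1.97.

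The stage changes themselves differed between the layers. For PO minus LD the interaction passed for 5 of 6 members (IHH, GLI1, GLI3, PTCH1 and HHIP), where 19.6% of all features passed (8.78% above 0 and 10.8% below), and for PO minus ED for 4 of 6 (IHH, GLI1, PTCH1 and HHIP) against 29.3% (13.6% and 15.7%). GLI3 was tested here only through TW PO, the group where it is high, so its call is not read as support. For PO minus ED the change in GC minus that in TW was −6.05 for IHH, 4.31 for GLI1, 3.74 for PTCH1 and 5.99 for HHIP (adjusted p from 3.71e-05 to 0.00191, limma). For PO minus LD it was −3.62 for IHH and −2.15 for GLI3 (adjusted p = 0.0356 and 0.0229), and both were lost with normexp and quantile normalization and in the deposited value table, the GLI3 value also with quantile normalization alone. The IHH value lost its call without slide 7 (adjusted p = 0.101) and in 7 of the 24 fits that left out 1 array, which were GC LD arrays 1, 4 and 5, GC PO arrays 1 and 4, and TW PO arrays 2 and 4 (highest adjusted p = 0.0923). For GLI1 it was 3.40 (adjusted p = 0.0113), but at the coding-end probe 1.12 (adjusted p = 0.17). For PTCH1 it was 2.38 (adjusted p = 0.00826), and 1.03 with the mean of all its probes (adjusted p = 0.139). GLI3 did not pass for PO minus ED (−1.80, adjusted p = 0.055), and did with slide as a block (adjusted p = 0.0464). SMO passed in neither (−1.03 and −1.47, adjusted p = 0.262 and 0.0967).

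The further probes of GLI1 and PTCH1 give a partial check on the choice of probe. The 5 shifted copies of either gene share 56 to 59 bases, so their agreement with each other carries little weight. Those of GLI1 include the probe that stands for the gene. The 5 shifted GLI1 probes all fell in TW from ED to PO, with differences from −6.77 to −5.96, and from LD to PO their differences lay between −4.68 and −3.93. At the coding-end probe shown above the differences were smaller, −1.60 from LD to PO and −3.49 from ED to PO (adjusted p = 0.0175 and 0.000381, limma over all probes). The upstream GLI1 probe, at chr6:72030411-72030470, was well above background on 5 of 34 arrays. It could not be tested between stages, and its GC minus TW difference over the mean of the stages was −0.38 ± 0.38 SE (adjusted p = 0.416). For PTCH1 the 5 junction probes were well above background on 4 or 5 of the 5 TW ED arrays and on 0 to 3 of the TW PO arrays, and all 5 fell from ED to PO (−3.61 to −2.04). Their LD to PO differences ran from −1.62 to −0.49, of which only the former passed (adjusted p = 0.00942). The other PTCH1 probe disagreed. Its mean was −6.14 in TW ED, −6.02 in TW LD and −5.24 in TW PO, and its LD to PO difference of 0.78 did not pass (adjusted p = 0.102, limma over all probes). From ED to PO its mean went up, whereas the other PTCH1 probes fell. Its values ran from −6.65 to −5.40 in TW ED and from −5.45 to −5.10 in TW PO, all well above background. In GC ED its mean was −6.09, close to that in TW ED.

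**Figure D4:**
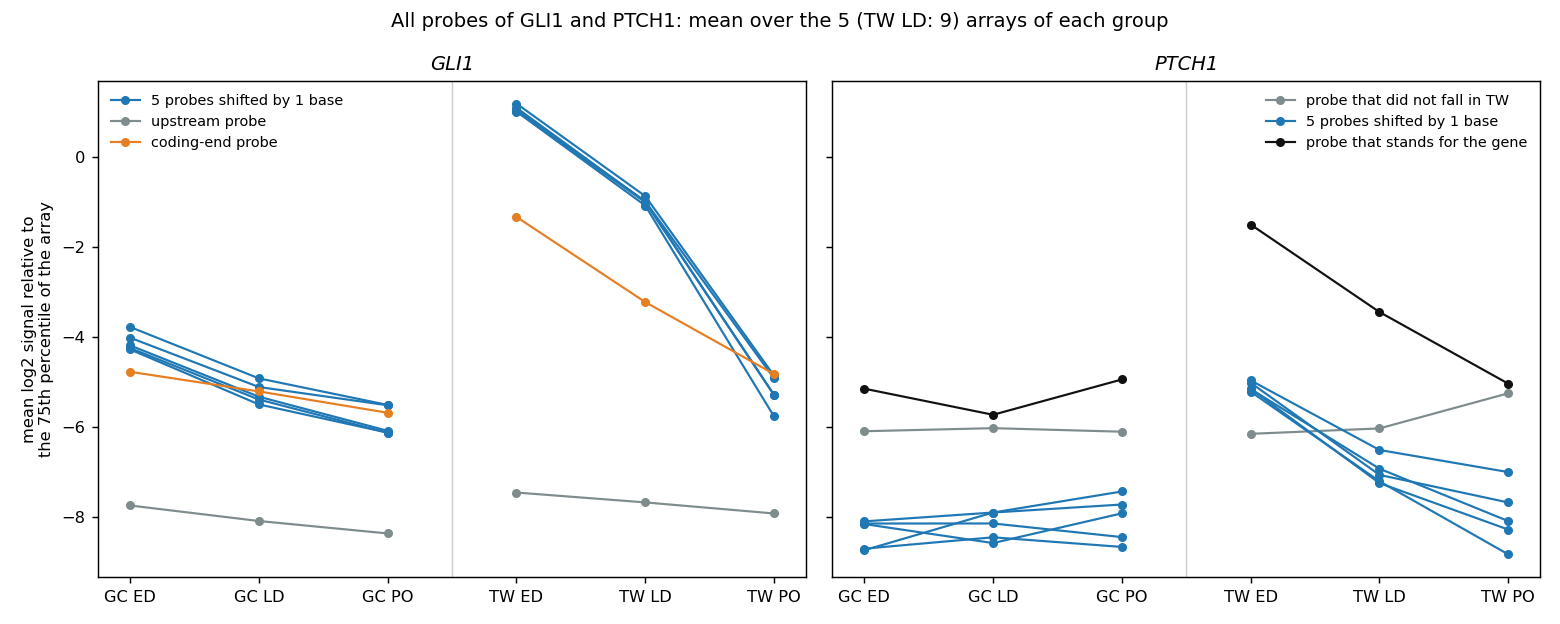
Mean log2 signal relative to the 75th percentile of the array for every probe of GLI1 (left) and PTCH1 (right) in the 6 groups. Shifted GLI1 probes overlie each other, the GLI1 coding-end probe declines along a shallower line in TW, and 1 PTCH1 probe stays between −6.14 and −6.02 in all groups except TW PO (−5.24).

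Across the 19 TW arrays the targets were compared after removal of the stage means, in 3 pairs. GLI1 and PTCH1 correlated with Pearson's r = 0.648 (adjusted permutation p = 0.00753) and Spearman's rho = 0.646 (adjusted permutation p = 0.0149). PTCH1 and HHIP correlated with r = 0.667 (adjusted permutation p = 0.00753) and rho = 0.554 (adjusted permutation p = 0.0319). For GLI1 and HHIP r was 0.226 (adjusted permutation p = 0.315) and rho 0.249. The unadjusted two-sided permutation p-values of r were 0.00315, 0.00502 and 0.315.

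Without the 2 arrays farthest from the median of the first gene, r was 0.541 for GLI1 with PTCH1 and 0.518 for PTCH1 with HHIP (adjusted permutation p = 0.0579 and 0.0633), and neither passed. Leaving out the outermost values narrows the range of the first gene, which by itself tends to lower r. How far the relations rest on those arrays therefore cannot be told from this setting. Without the 4 arrays of slide 7 they were 0.562 and 0.497 (adjusted permutation p = 0.132 for both). With stage and slide removed together they were 0.635 and 0.703 (adjusted permutation p = 0.0118 and 0.00768), but rho was 0.474 and 0.498 (adjusted permutation p = 0.0662 for both). Under other scalings rho of PTCH1 with HHIP did not pass in any of 4 (adjusted permutation p from 0.06 to 0.0824), and rho of GLI1 with PTCH1 did not pass with median centring or normexp (adjusted permutation p = 0.0673 and 0.0726). Over the 9 TW LD arrays alone they were 0.537 and 0.708 (exact permutation p = 0.161 and 0.033, adjusted 0.241 and 0.099). TW LD array 6, on slide 7, was the lowest of its group for both GLI1 (−3.76) and PTCH1 (−4.73), and TW LD array 7 of the same slide was the highest for PTCH1 (−1.85) and HHIP (−1.91).

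**Figure D5:**
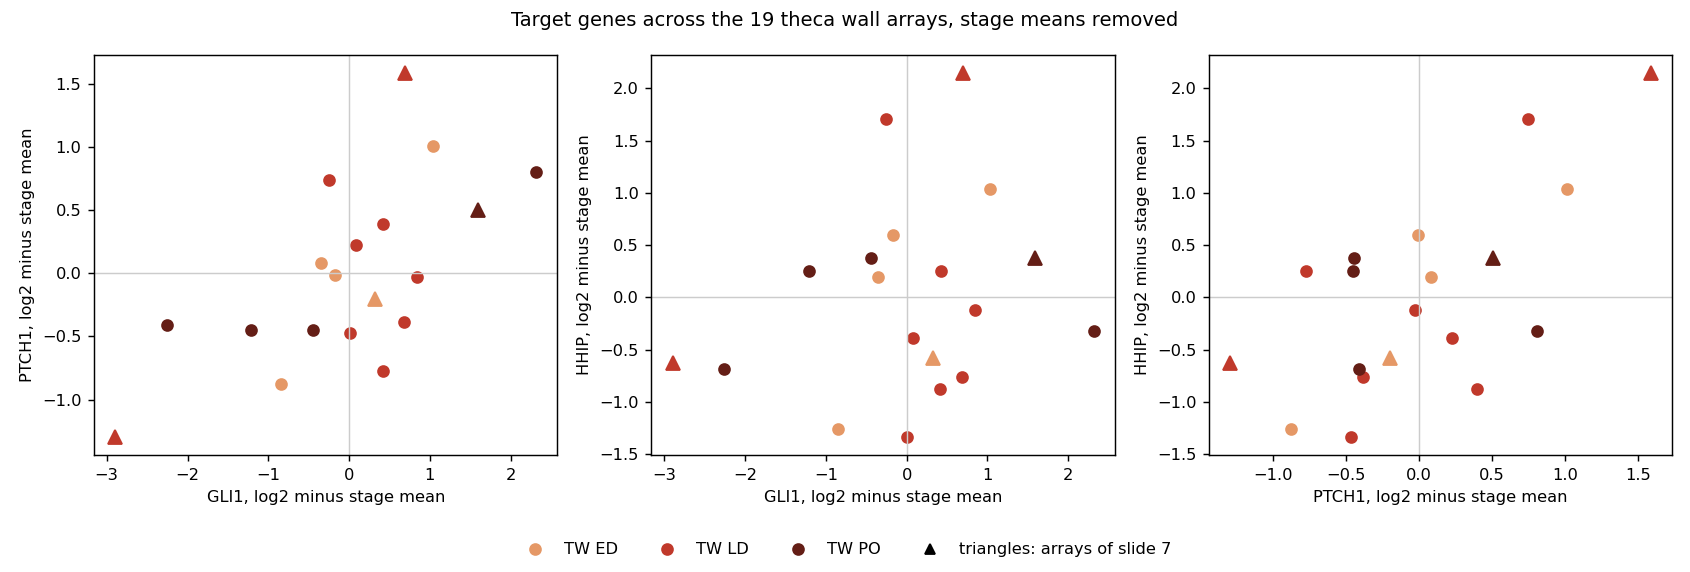
Each point is 1 of the 19 TW arrays, with the log2 value of a target minus its stage mean on either axis, and triangles mark the 4 arrays of slide 7. The pairs GLI1 with PTCH1 (r = 0.648) and PTCH1 with HHIP (r = 0.667) slope upward, and GLI1 with HHIP (r = 0.226) does not do so clearly.

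The patterns most like IHH over the 15 GC arrays, among 9318 genes with a symbol, were those of RTTN (r = 0.958), ELL2 (0.946), MYH7 (0.941), SHCBP1 (0.940) and ERCC6L (0.939). Over the 19 TW arrays, among 10142 genes, GLI1 was most like CAMK2G (r = 0.968), CBX3 (0.942), MUTYH (0.935), RAB30 (0.935) and HDAC3 (0.928). PTCH1 was most like PARP1 (r = 0.944), STOX2 (0.938), INTS12 (0.916), NR3C1 (0.915) and BANP (0.913). Among the members, PTCH1 ranked 28 in likeness to GLI1 (r = 0.890) and GLI1 and HHIP ranked 17 and 20 in likeness to PTCH1 (r = 0.890 and 0.889). These values include the stage differences and are descriptions of these arrays.

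The other genes of the pathway were followed as lists, of which 47 of 49 genes were named on the array. In GC from ED to PO 4 of 38 tested rose and 12 fell, and in TW 3 of 44 rose and 10 fell. Over all features 21.6% rose and 22.4% fell in GC, and 13.8% and 12.4% in TW. The median difference over the lists was −0.37 in GC and −0.04 in TW, against 0.04 over all features in both.

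DHH, another Hedgehog ligand, also fell in GC. Its lowest, median and highest log2 values were −0.50, 0.57 and 0.80 in GC ED, −4.01, −2.82 and −0.61 in GC LD, and −4.02, −3.58 and −2.57 in GC PO. DHH fell by 3.69 ± 0.63 SE in GC from ED to PO (adjusted p = 0.000479), and the groups did not overlap. In TW it was lower throughout, with medians of −3.68, −3.90 and −5.74 at ED, LD and PO, all arrays being well above background, and it fell there too, with a difference of −1.93 ± 0.43 SE from ED to PO (adjusted p = 0.00421, limma). DHH was still higher in GC than in TW at PO, by 2.21 ± 0.54 SE (adjusted p = 0.00123, limma). A further ligand, SHH, was well above background on 1 of 34 arrays.

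Among genes that process and release ligand, SCUBE2, whose secreted product helps to free the ligand, was higher in GC by 3.97 ± 0.26 SE over the stages (adjusted p = 3.95e-14, limma). DISP1, the ligand exporter, fell in GC from ED to PO (−1.36, adjusted p = 0.00315) and rose in TW (1.29, adjusted p = 0.017), and the change in GC minus that in TW was −2.66 (adjusted p = 0.000307, limma interaction). SCUBE1 rose (2.71) and SCUBE3 fell (−2.28) in GC, so that of 5 tested 1 rose and 2 fell.

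Among the co-receptors and ligand-binding proteins, LRP2 (−4.41), BOC (−3.59), CDON (−2.16) and the glypican GPC3 (−3.40) were higher in TW over the mean of the stages, as GC minus TW differences that passed the test under every scaling tried. GPC3, which competes for ligand, fell from ED to PO in both layers (−3.64 in GC and −1.63 in TW, adjusted p = 0.00559 and 0.000693, limma).

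Of 11 transducers tested 1 rose and 2 fell in GC from ED to PO and 1 fell in TW. GPR161, a ciliary receptor that restrains the pathway, fell by 2.63 ± 0.45 SE in GC (adjusted p = 0.000485), where PRKACA, the catalytic subunit of protein kinase A, rose by 1.36 (adjusted p = 0.00149, limma). Of 9 ciliary genes 1 rose and 1 fell in GC, and 1 rose and 3 fell in TW, where IFT88 (−0.99) and IFT52 (−1.07), subunits of the intraflagellar transport machinery, and the motor subunit DYNC2H1 (−0.74) fell.

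The targets known from other tissues did not move as a block. In TW from ED to PO 3 of 12 tested fell (MYCN −3.22, CCND2 −1.11 and NR2F1 −1.04) and SNAI1 rose by 2.27, with a median over the list of −0.04 against 0.04 over all features. In GC 4 of 9 fell, with MYCN at −3.15 and CCND2 at −1.80, and NR2F1 rose by 1.74 (adjusted p = 0.0475, limma), a call lost under 3 of the 4 other scalings. Some of the 4 falls in GC lost their call under other scalings too, so that count depends on the scaling. MYCN and CCND2 promote the cell cycle and are regulated by other signals too. Leukocyte markers moved with the same stages, 6 of 8 having risen in TW from ED to PO and 5 of 8 in GC. The summed leukocyte signal ran from 20.8 to 28.8 in TW ED and from 33.1 to 67.9 in TW PO, and in GC from 19.3 to 29.4 at ED and from 41.8 to 46.9 at PO. PTPRC had by far the highest signal of the list, with stage means averaging log2 4.96 in GC and 4.48 in TW. The other 7 leukocyte markers were lower in GC than in TW, so these sums do not compare the leukocyte content of the layers. In GC the sums are mostly PTPRC signal, so their ranges by stage say little about the other 7 markers. The summed theca and stroma signal ran from 174 to 202 in TW ED and from 167 to 202 in TW PO, with 2 of 10 of these markers having risen and none fallen. Of 8 endothelial markers 4 rose in TW from ED to PO, and of 7 smooth muscle and pericyte markers tested 4 rose in GC. The part of these cell types in the results was not tested beyond these values.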

How the data were processed

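Each array was scanned from Cy3-labelled RNA and quantified by the authors with Agilent Feature Extraction (9.1 in the submitters' processing notes, 9.5.3.1 per the file headers), and the deposited scanner files give an intensity per spot that is background-subtracted, per the file headers. The authors' deposited value table holds log2 values with the same median (7.29) in every column. Against the scanner files these followed log2 mean signal without background subtraction, r from 0.9972 to 0.9999, and at equal rank the columns differ by at most 0.00566, a shared distribution such as quantile normalization gives. The sources used here do not state the method.

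From the processed intensity, log2 values minus the 75th percentile of each array were computed here. Controls and spots marked as outliers were dropped, saturated spots were kept and replicate spots averaged. Genes were named from the files or, by gene number or accession, from a RefSeq table (TB-T2T), and 20626 of 43603 probes stayed unnamed. A feature needed 5 arrays well above background. limma 3.58.1 in R 4.3.3 was fitted to the 15 GC or 19 TW arrays for stages and to all 34 for layers. Only the GC stage fit was checked on simulated data, and the TW and layer fits were not. Correlations used 100000 resamples within stage. The members, the pathway and marker lists, the rule for named genes (all members, list genes that passed, the 5 most alike) and the tests were chosen with earlier results of these data known. Alternatives changed the scaling, background correction, filter, outlier flags, choice of probe, slide term or arrays used, or took the deposited log2 values. Whether arrays came from separate mares is not said beyond the term biological replicate, and the number of arrays limits the precision. Values of 1 listed gene are not reported here.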

Additional observations from a re-analysis of the deposited data

Results flagged for a closer look

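GLI1 on GC ED array 5 was −6.32, apart from the other 4 arrays of its group, the nearest of which was −3.57, and IHH on the same array was the lowest of its group at −4.73. GLI1 on TW LD array 6, on slide 7, was −3.76, whereas the nearest of the other 8 arrays was −1.12. These were 2 of 42 groups of values examined (7 genes in 6 groups), and chance gives about 1 such group in 20.

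The change between stages differed between granulosa and theca wall, by limma's interaction term with Benjamini-Hochberg adjustment. For PO minus LD the change in GC minus that in TW was −3.62 for IHH, 3.40 for GLI1, −2.15 for GLI3, 2.38 for PTCH1 and 3.20 for HHIP. GLI3 met the filter only through TW PO, and its value is not read as support. For PO minus ED it was −6.05 for IHH, 4.31 for GLI1, 3.74 for PTCH1 and 5.99 for HHIP.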

How the results depend on the processing

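No paired analysis was possible because the labels give no replicate numbers, animals or follicles that would match arrays between groups. Of 69 member differences tested 38 passed, of which 24 kept direction and call under every alternative run for them, and none changed sign. The 38 include the calls of GLI3, which met the filter only through TW PO and are not read as support. The comparisons share arrays, and the share of all features that kept their call is not given here. The number of members that passed was 6 between layers over the mean of stages, and 3 with quantile normalization, with median centring and in the deposited value table. It was 3 between layers at PO, and 1 in the deposited value table. For TW LD minus ED it was 0, and 1 with normexp, in the deposited value table and with median centring. For GC PO minus LD it was 1, and 0 with normexp and in the deposited value table, and 2 with slide as a block and with all 34 arrays fitted. For TW PO minus LD it was 4, and 1 with normexp, 2 in the deposited value table and 2 with slide as a block. For the PO minus LD interaction it was 5, and 3 with normexp and in the deposited value table. Except for TW LD minus ED and GC PO minus LD, these main counts include GLI3, which met the filter only through TW PO. Leaving out 1 array at a time gave 1 to 2 members for GC PO minus LD (2 without GC LD array 1, GC LD array 3 or GC PO array 4), 0 to 1 for TW LD minus ED (1 without TW LD array 7) and 1 to 5 for TW PO minus LD (1 without TW PO array 5). The other counts stayed within 1 of the main value, from 0 for GC LD minus ED to 6 between layers.

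The correlation of GLI1 with PTCH1 was 0.648 over 19 TW arrays, and no longer passed without slide 7 (0.562), without the 2 outermost arrays (0.541) or in TW LD alone (0.537). That of PTCH1 with HHIP was 0.667, and 0.497, 0.518 and 0.708 under those settings, where it no longer passed either (adjusted permutation p = 0.132, 0.0633 and 0.099).

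Sign changes were limited to differences that had not passed. GLI1 in GC minus TW at PO was −0.65, and 0.26 with quantile normalization and 0.13 with median centring. GLI3 in GC minus TW at LD was −0.33, and 0.19 with quantile normalization, 0.13 after median centring, 0.057 in the deposited value table and 0.012 with normexp. GLI3 in TW LD minus ED was 0.40, and −0.0017 with normexp and −0.056 without slide 7. SMO in GC minus TW at ED was −0.51, and 0.064 with quantile normalization, 0.015 with normexp and 0.057 in the deposited value table. IHH in TW was 0.22 for LD minus ED and −0.078 with normexp, and −0.47 for PO minus LD and 0.066 with normexp. PTCH1 in GC minus TW at PO was 0.09, and −0.15 with the mean of all its probes. Leaving out 1 array turned the sign of IHH in GC minus TW at PO (range −0.23 to 0.63), TW LD minus ED (−0.077 to 0.61) and TW PO minus ED (−0.73 to 0.14), and of PTCH1 in GC PO minus ED (−0.021 to 0.48) and GC minus TW at PO (−0.052 to 0.29). The cause of these differences between settings was not tested. Values near background, as for GLI2, GLI3, and IHH in GC PO and in TW, carry little information on fold size.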
